A study of Homo sapiens with 8 samples.

Results

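HT29 was compared with DLD1 in monolayer (2D) culture, both established human colorectal adenocarcinoma cell lines. The items compared were the mature miRNAs whose mean over the 2 monolayer libraries of at least one line reached 10 CPM, where CPM is the count of a miRNA over the library's total miRNA count, scaled to 1000000. This rule kept 396 of the 1780 miRNAs in the series table, of which 249 passed in both lines, 99 through DLD1 only and 48 through HT29 only. A miRNA that passed through one line only was chosen by a level in that line, so its difference between the lines was partly fixed by the rule. Around the threshold, the higher line mean was 10.09 CPM for miR-1276 and 10.14 CPM for miR-502-5p just inside, and 9.965 CPM for miR-4664-3p and 9.963 CPM for miR-616-5p just outside.

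The study sequenced small RNA of both lines grown for 6 days in 2D or as multicellular spheroids (MCS), with 2 libraries per group and 8 in all. In 2D, 35000 DLD1 cells per flask were seeded in RPMI medium and 100000 HT29 cells in DMEM. DLD1 libraries were built with version V3 of the NEXTflex kit and HT29 libraries with version V2. Line, medium, seeding number and kit version therefore cannot be told apart, so the emphasis below is on differences of at least 10-fold and on whether both arms of a hairpin or several members of a cluster moved together. The labels do not say that the 2 libraries of a group came from separate cultures, so p-values measure only the spread between those libraries.

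A miRNA is cut from a hairpin whose strands, the 5p and 3p arms, can both be counted, and it recognises target mRNAs mainly through its seed near the 5′ end. Hairpins that lie close together on one strand are often transcribed as a single precursor, and several hairpins can yield the same mature sequence. In colorectal epithelium, miR-192, miR-194, miR-215 and the miR-200 family are well known as abundant epithelial miRNAs.

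The sequences below are the mature miRNAs on which the main results rest, written 5′ to 3′ from RefSeq (GRCh38.p14), which held 355 of the 396. Capitals mark the seed, bases 2 to 8. The first set was higher in HT29 and shows both arms of 2 hairpins, the 3 guide arms of the miR-99b, let-7e and miR-125a cluster, and a pair from separate loci, miR-192-5p and miR-215-5p, which share a seed:
miR-552-5p: gUUUAACCuuuugccuguugg
miR-552-3p: aACAGGUGacugguuagacaa
miR-455-5p: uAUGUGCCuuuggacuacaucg
miR-455-3p: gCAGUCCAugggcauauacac
miR-205-5p: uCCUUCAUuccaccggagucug
miR-31-5p: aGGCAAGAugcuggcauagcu
miR-99b-5p: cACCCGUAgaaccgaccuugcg
let-7e-5p: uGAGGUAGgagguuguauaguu
miR-125a-5p: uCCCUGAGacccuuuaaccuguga
miR-192-5p: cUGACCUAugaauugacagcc
miR-215-5p: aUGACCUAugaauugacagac

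The second set was higher in DLD1 and shows the miR-371-373 locus, in which miR-372-3p and miR-373-3p share a seed, and both arms of the miR-9 and miR-1247 hairpins:
miR-371a-5p: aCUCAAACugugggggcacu
miR-371a-3p: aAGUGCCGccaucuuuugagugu
miR-371b-3p: aAGUGCCCccacaguuugagugc
miR-372-3p: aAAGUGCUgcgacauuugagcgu
miR-373-3p: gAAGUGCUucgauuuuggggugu
miR-148a-3p: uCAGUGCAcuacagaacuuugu
miR-9-5p: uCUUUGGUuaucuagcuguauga
miR-9-3p: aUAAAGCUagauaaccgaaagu
miR-1247-5p: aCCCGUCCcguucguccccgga
miR-1247-3p: cCCCGGGAacgucgagacuggagc
miR-424-5p: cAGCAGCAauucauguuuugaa
miR-503-5p: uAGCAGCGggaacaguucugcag
miR-675-5p: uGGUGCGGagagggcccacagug

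The third set holds relatives with the seed of a miRNA above whose own difference was smaller or ran the other way:
miR-100-5p: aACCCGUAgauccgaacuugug
let-7a-5p: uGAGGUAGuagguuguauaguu
miR-125b-5p: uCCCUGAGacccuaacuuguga
miR-148b-3p: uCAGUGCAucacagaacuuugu
miR-152-3p: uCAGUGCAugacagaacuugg

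Total miRNA counts were 15814475 and 25477315 in the DLD1 monolayer libraries and 10495634 and 26211524 in those of HT29. HT29 replicate 1 stood apart: its 10 most abundant miRNAs took 85.9% of its counts, against 66.2% to 68.0% in the other 3 libraries. The median absolute difference between replicates was 1.60 on the log2 CPM scale in HT29 and 0.21 in DLD1. Levels below are CPM of the library total, in the order replicate 1 and replicate 2. Fold changes come from edgeR's quasi-likelihood fit of counts scaled by upper quartile factors, which were 0.389 for HT29 replicate 1 and 1.21 to 1.49 for the other 3 libraries, so fitted folds in favour of HT29 run above the plain CPM ratios. A miRNA was called at an adjusted p under 0.05 (Benjamini-Hochberg over the 396 miRNAs) and a fold of at least 1.5. Scaling by library totals in place of upper quartile factors moved the median log2 fold change over the 396 from -0.15 to -1.10, and TMM factors moved it to 0.12.

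Of the 396 miRNAs, 223 were called (56.3%), 105 higher in HT29 (26.5%) and 118 higher in DLD1 (29.8%). The median log2 fold change was -0.15. Among the 249 that passed the minimum in both lines, 103 were called, 59 higher in HT29 and 44 higher in DLD1. The split depended on scaling: library totals gave 37 higher in HT29 and 94 higher in DLD1. Because of this, modest differences are given below as values and few directions are drawn from them.

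A fold of at least 10 was fitted for 84 called miRNAs (21.2%), 46 higher in HT29 (11.6%) and 38 higher in DLD1 (9.60%), and for all 84 the libraries of one line lay above those of the other. Non-overlap alone was common, at 308 of 396 (77.8%). All 84 kept their direction under each of the scalings, tests, filters and left-out libraries tried in which they could be tested. Leaving out 1 library of a line makes the fit take its spread from the 2 libraries of the other line. The biological coefficient of variation was 0.186 in DLD1 alone and 0.526 in HT29 alone. Numbers of calls with 1 library left out, here and below, therefore also depend on which line sets the spread. With library totals 75 of the 84 were called and 66 were at least 10-fold, and the 10-fold split became 28 higher in HT29 and 61 higher in DLD1. Without DLD1 replicate 2, 69 were called. Of the 68 called miRNAs named in the text, 20 lost their call without DLD1 replicate 2, with no change of direction. Among them were miR-99b-5p and let-7e-5p, whose log2 fold changes were then 8.79 and 5.88, miR-1-3p, miR-1247-5p, miR-20a-5p, miR-335-3p and miR-7-5p. Without DLD1 replicate 1, 10 calls were lost, and with library totals 11. Only 16 of the 84 passed the minimum in both lines, and 13 of these were higher in HT29.

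**Figure D1:**
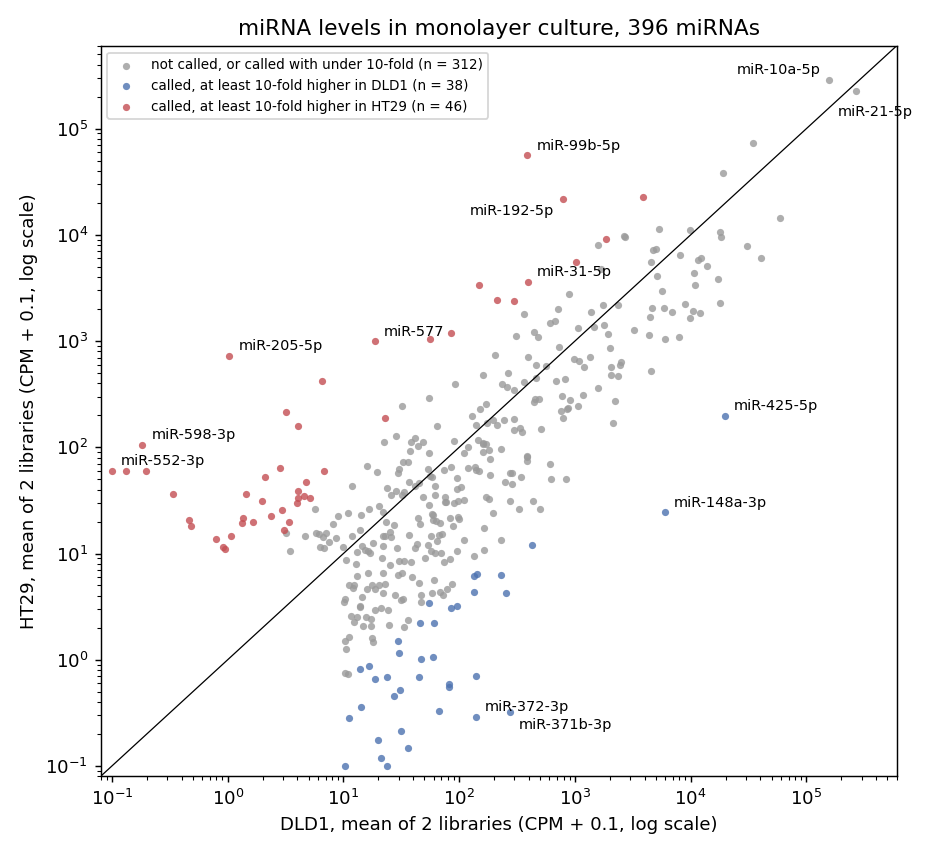
Mean level of the 396 miRNAs in the 2 DLD1 monolayer libraries (x axis) against the 2 HT29 monolayer libraries (y axis), both as CPM of the library total plus 0.1 on log scales, with the line of equal level. Red points (46) and blue points (38) were called with a fitted fold of at least 10 in favour of HT29 or DLD1. The fitted fold uses upper quartile factors and can differ from the ratio of the CPM drawn. miR-99b-5p and miR-425-5p lie far off the line at high levels.

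The clearest contrasts were miRNAs that were on in one line, with at least 10 CPM in both libraries, and off in the other, with under 1 CPM in both. The rule was met by 6 miRNAs on in HT29 (1.52%) and 18 on in DLD1 (4.55%). All 24 were called, on the same values that the rule used. In the MCS libraries, which the rule did not use, the lines did not overlap for any of the 24 (78.8% of the 396 did not overlap there), and the on/off rule itself was met by 11, 2 of them on in HT29.

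The HT29 set held both arms of the miR-552 hairpin (chr1:35135200-35135295, minus strand, GRCh37, in no annotated host gene). miR-552-3p was at 36.3 and 84.1 CPM in HT29 and had no count in either DLD1 library, which makes it at least 969-fold higher in HT29 on the summed counts, taking 3 counts over both libraries as the limit. Its other arm, miR-552-5p, was at 39.2 and 80.3 CPM in HT29 and at 0 and 0.196 CPM in DLD1 (fitted log2 fold change 9.97, SE 1.05, adjusted p = 0.00357). Both arms were thus near or at absence in DLD1 monolayers and at 36.3 CPM or more in HT29. In MCS the DLD1 libraries held 2.38 and 3.62 CPM of miR-552-3p, so the line difference there was smaller but did not overlap, with HT29 at 85.0 and 140 CPM.

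The miR-455 hairpin lies in an intron of the collagen gene COL27A1 (chr9:116971714-116971809, plus strand). miR-455-5p was at 23.1 and 96.1 CPM in HT29 against 0.0632 and 0 in DLD1, where 1 read was counted in all. The ratio of summed counts was 3100, with a 95% counting interval of 557 to 123000. Its 3p arm was at 21.7 and 107 CPM in HT29 and 4.62 and 0.824 CPM in DLD1 (log2 fold change 5.28, SE 1.04, adjusted p = 0.0141). Both arms were therefore higher in HT29, although only the 5p arm met the on/off rule.

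The other 3 miRNAs on in HT29 came from hairpins with only 1 member among the 396. miR-598-3p was at 29.1 and 181.8 CPM in HT29 and 0.126 and 0.0393 CPM in DLD1, with 3 reads in both DLD1 libraries (ratio 1900, counting interval 651 to 9220). miR-3677-3p was at 14.4 and 58.0 CPM against 0 and 0.471 CPM (log2 fold change 7.84, SE 1.14, adjusted p = 0.00674). miR-548g-3p was at 14.01 and 27.01 CPM against 0.253 and 0.471 CPM (log2 fold change 6.796, SE 0.56, adjusted p = 0.00262). In each case HT29 replicate 2 was the higher HT29 library.

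miR-205-5p, an epithelial miRNA from an exon of the lncRNA MIR205HG (chr1:209605478-209605587, plus strand), just missed the rule because 1 DLD1 library was above 1 CPM. It was at 252 and 1198 CPM in HT29 and at 0.696 and 1.18 CPM in DLD1 (log2 fold change 10.29, SE 0.57, adjusted p = 0.00262). Its 3p arm was counted at 1.33 and 9.19 CPM in HT29 and had no count in DLD1. miR-874-3p, from an intron of KLHL3, was at 146 and 284 CPM against 3.35 and 2.83 CPM (log2 fold change 7.17, SE 0.50). miR-577, from an intron of UGT8, was at 820 and 1175 CPM against 16.8 and 20.4 CPM (log2 fold change 6.91, SE 0.58). These complete, with miR-99b-5p, the 10 largest fitted folds in favour of HT29.

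**Figure D2:**
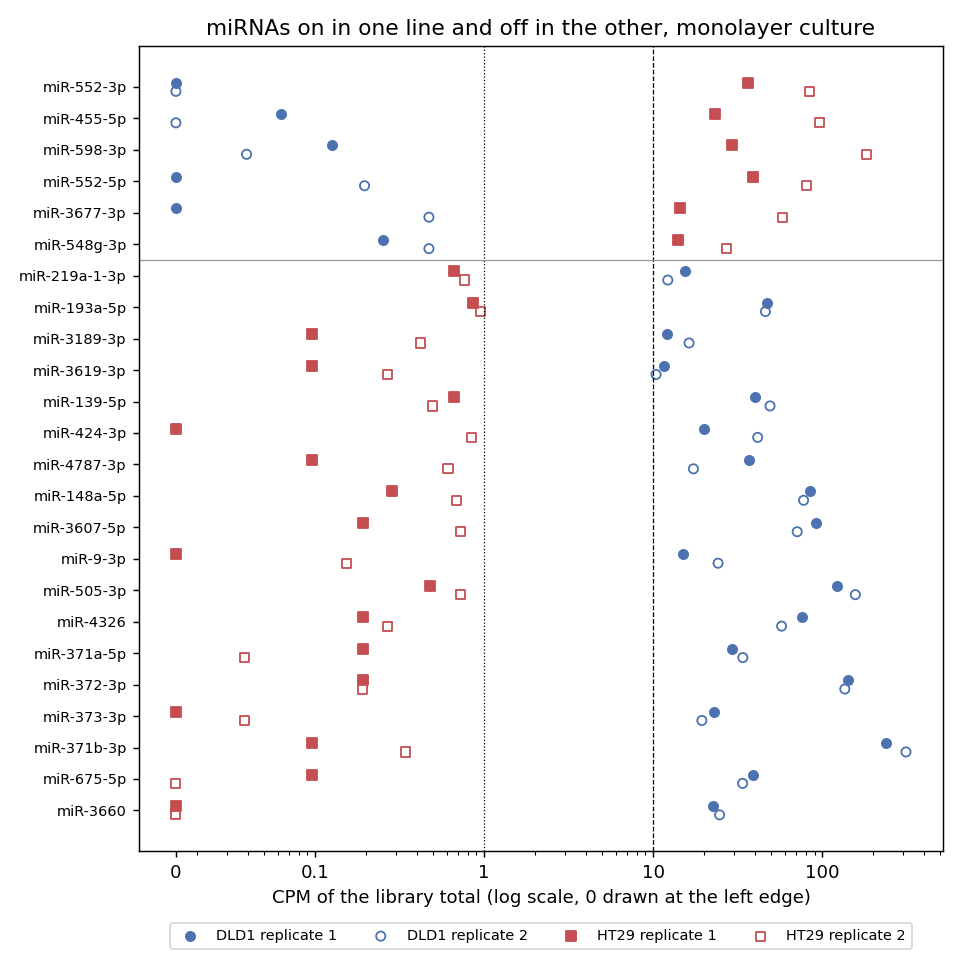
CPM of the library total (x axis, log scale, with 0 drawn at the left) for the 24 on/off miRNAs (rows) in the 4 monolayer libraries, circles for DLD1 and squares for HT29, filled for replicate 1 and open for replicate 2. The dotted and dashed lines mark 1 and 10 CPM, and every row has one line to the right of 10 CPM and the other to the left of 1 CPM, as the rule requires.

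Of the 18 miRNAs on in DLD1, 4 came from the miR-371-373 locus or its opposite strand, a locus known for expression in embryonic stem cells. miR-372-3p was at 142 and 136 CPM in DLD1 and 0.191 CPM in both HT29 libraries (log2 fold change -8.70, SE 0.69, adjusted p = 0.00262). miR-373-3p, with the same seed, was at 22.8 and 19.4 CPM against 0 and 0.0382 CPM. miR-371a-5p was at 29.2 and 33.9 CPM against 0.191 and 0.0382 CPM.
These 3 arms come from hairpins that lie together at chr19:54290929-54292027 (plus strand, GRCh37, no annotated host gene), and in both HT29 libraries each was under 1 CPM. The other arms of the miR-372 and miR-373 hairpins were below the 10 CPM minimum and were not tested. The other arm of the miR-371a hairpin, miR-371a-3p, was at 9.67 and 10.9 CPM in DLD1, so it missed the on/off rule by its first library, and it had no count in HT29 (fitted log2 fold change -10.41, SE 0.62, adjusted p = 0.00262). miR-371b-3p, from the minus strand of the same site, was at 237 and 313 CPM against 0.0953 and 0.343 CPM, a ratio of 1040 (counting interval 566 to 2170). It shares a run of 20 complementary bases with miR-371a-5p. In MCS the DLD1 libraries held 27.4 and 28.6 CPM of miR-371b-3p and 25.7 and 27.9 CPM of miR-372-3p, lower than in 2D, while HT29 stayed at or near 0.

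A second group on in DLD1 came from hairpins of which the other arm moved the same way. miR-9, best known from neural tissue, has 3 hairpins that yield the same arms. Its miR-9-3p arm was at 15.05 and 24.2 CPM in DLD1 and 0 and 0.153 CPM in HT29 (log2 fold change -6.90, SE 0.64, adjusted p = 0.00284), and miR-9-5p was at 62.5 and 55.4 CPM against 1.14 and 0.801 CPM (log2 fold change -4.80, SE 0.84, adjusted p = 0.0104). Both arms were low in HT29, and in the DLD1 spheroids both lay above their 2D values, with miR-9-5p at 329 and 391 CPM. miR-148a-5p was at 84.1 and 77.6 CPM in DLD1 and 0.286 and 0.687 CPM in HT29. Its abundant partner, miR-148a-3p (chr7:25989539-25989606, minus strand, no host gene), was at 6533 and 5420 CPM against 27.5 and 21.4 CPM (log2 fold change -6.55, SE 0.88, adjusted p = 0.00533). The lower arm therefore met the on/off rule while the higher arm, which differed about as much, did not reach under 1 CPM in HT29.

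Single arms made up most of the rest. miR-3660 was at 22.5 and 24.7 CPM in DLD1 with no count in HT29, which makes it at least 292-fold higher in DLD1. miR-675-5p, processed from an exon of the imprinted lncRNA H19 (chr11:2017989-2018061, minus strand), was at 38.9 and 33.8 CPM against 0.0953 and 0 CPM, with 1 read in all in HT29 (ratio 1310, counting interval 235 to 51800). miR-505-3p was at 123 and 157 CPM against 0.476 and 0.725 CPM, and its MCS levels were nearly the same as in 2D, at 157 and 158 CPM in DLD1.

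The other on/off miRNAs of DLD1 were miR-4326, miR-3607-5p, miR-139-5p, miR-424-3p, miR-4787-3p, miR-193a-5p, miR-3619-3p, miR-3189-3p and miR-219a-1-3p. Ratios of their summed counts ran from 18.3 for miR-219a-1-3p (counting interval 12.6 to 27.8) to 263 for miR-4326. The other arms of the miR-3607, miR-139, miR-424, miR-4787 and miR-3619 hairpins, and of miR-675 and miR-505 above, were also higher in both DLD1 libraries than in either HT29 library. The other arm of miR-219a-1-3p went the opposite way at low levels: miR-219a-5p, which was not among the 396, was at 0.316 and 0.393 CPM in DLD1 and 3.33 and 5.38 CPM in HT29. miR-193a-3p was at 0.589 CPM or less in all 4 monolayer libraries, so nothing was detectable there about the second arm of that hairpin.

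The miR-99b, let-7e and miR-125a cluster differed at high abundance. Its 3 hairpins lie within chr19:52195865-52196592 on the plus strand inside SPACA6. miR-99b-5p was at 375 and 400 CPM in DLD1 and at 79336 and 33216 CPM in HT29 (log2 fold change 8.77, SE 1.37, adjusted p = 0.00781), which was 7.93% and 3.32% of all miRNA counts in the HT29 libraries. let-7e-5p was at 46.5 and 64.4 CPM against 1197 and 887 CPM (log2 fold change 5.65, SE 0.88, adjusted p = 0.00771). miR-125a-5p was at 131 and 165 CPM against 1257 and 5454 CPM (log2 fold change 5.26, SE 0.36, adjusted p = 0.00262).

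All 6 arms of the cluster were called higher in HT29, although without DLD1 replicate 2 the calls of miR-99b-5p, miR-99b-3p and let-7e-5p were lost, and with library totals that of miR-99b-3p. The 3p arms were less abundant: miR-125a-3p was at 1.96 and 2.04 CPM in DLD1 and 16.3 and 88.9 CPM in HT29 (log2 fold change 5.39), let-7e-3p differed by 4.12 and miR-99b-3p by 3.15 on the log2 scale. For miR-99b, HT29 replicate 1 was the higher library on the 5p arm and the lower on the 3p arm, at 108 against 473 CPM. In MCS miR-99b-5p was at 185 and 191 CPM in DLD1 and 27729 and 20943 CPM in HT29.

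The locus has paralogs elsewhere whose leading miRNAs share its seeds. Of these, miR-125b-5p, miR-100-5p and let-7a-5p were not called higher in HT29. miR-125b-5p comes from 2 hairpins and let-7a-5p from 3, so they cannot show single loci. Paralog arms below 10 CPM, which were not tested, differed in both directions. miR-99a-5p was at 0.632 and 1.57 CPM in DLD1 and 4.76 and 2.21 CPM in HT29. miR-125b-2-3p had no count in DLD1 and was at 2.48 and 3.97 CPM in HT29. miR-125b-1-3p, at 3.86 and 5.42 CPM in DLD1, and miR-100-3p, at 2.15 and 2.9 CPM, had no count in HT29. miR-125b-5p, with the seed of miR-125a-5p, was at 97.8 and 94.6 CPM in DLD1 and 5.43 and 15.3 CPM in HT29 (log2 fold change -2.31, SE 0.36, adjusted p = 0.00754). Its call was lost when either DLD1 library was left out. miR-100-5p, with the seed of miR-99b-5p, was at 812 and 762 CPM against 281 and 96.3 CPM, and its fitted log2 fold change of -0.43 (SE 1.01, adjusted p = 0.735) did not pass. let-7a-5p, with the seed of let-7e-5p, was at 11817 and 16089 CPM against 6367 and 3707 CPM (log2 fold change 0.03, SE 0.83, adjusted p = 0.98). Across the 9 let-7 and miR-98 members with that seed, 1 was called higher in HT29, which was let-7e-5p, and 1 higher in DLD1, which was let-7g-5p, and both calls were lost without DLD1 replicate 2. The counts rested on single libraries, with 2 higher in HT29 and 7 higher in DLD1 without HT29 replicate 1, and 5 and 2 without HT29 replicate 2. The levels of let-7g-5p were 15004 and 21103 CPM in DLD1 and 1925 and 2634 CPM in HT29.

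The 450b-to-424 cluster on the X chromosome (chrX:133674215-133680741, minus strand) ran the other way. Its leading arms, miR-450b-5p, miR-450a-5p, miR-542-3p, miR-503-5p and miR-424-5p, were all called higher in DLD1, with log2 fold changes from -4.80 to -2.77. miR-450b-5p was at 262 and 243 CPM in DLD1 and 3.43 and 4.88 CPM in HT29. miR-503-5p, which with miR-424-5p belongs to the extended miR-15/16 group of cell-cycle regulators, was at 134 and 135 CPM against 2.76 and 9.23 CPM. The lowest DLD1 value of the 5 arms was 42.9 CPM, for miR-450a-5p, and the highest HT29 value was 13.2 CPM, for miR-542-3p.

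**Figure D3:**
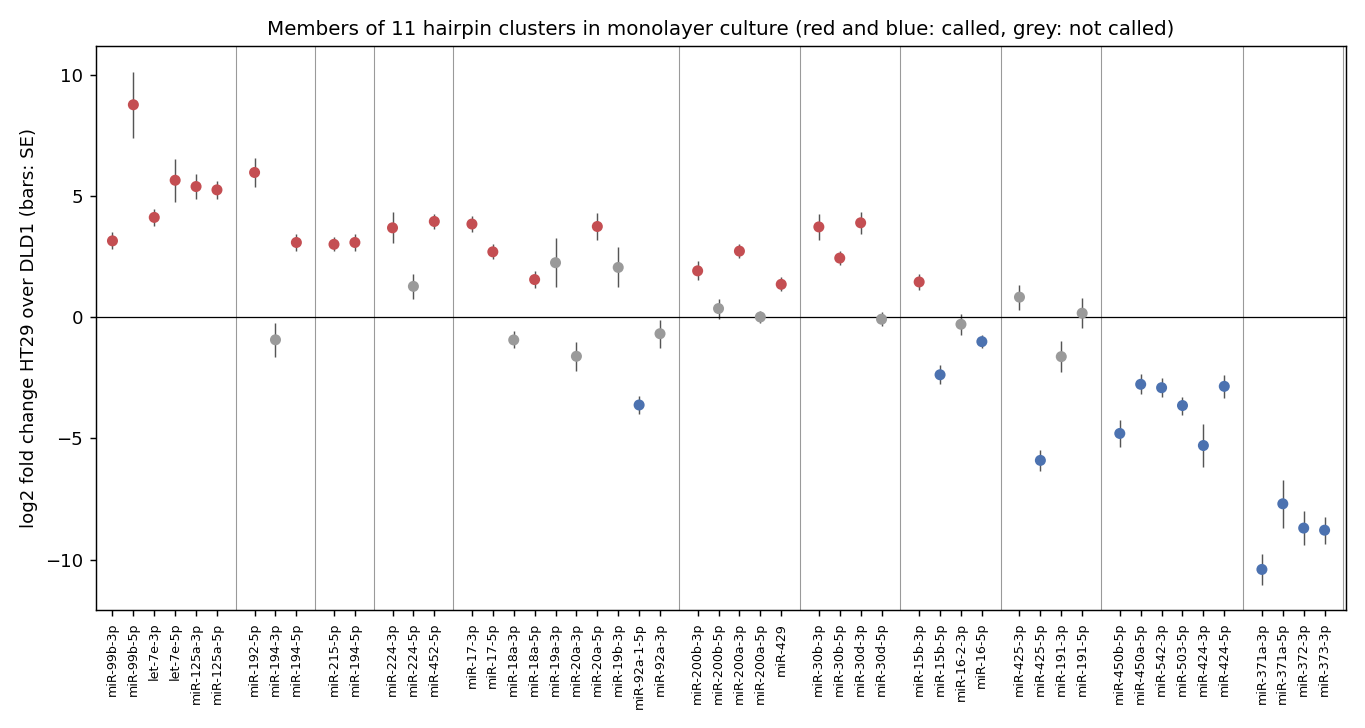
Fitted log2 fold change HT29 over DLD1 (y axis) with its SE for each miRNA (x axis) of 11 hairpin clusters, ordered by median, red or blue when called and grey when not. The miR-99b, let-7e and miR-125a cluster lies wholly above 0 and the miR-371-373 cluster wholly below 0, while the miR-17-92 and miR-425/191 clusters have members apart from each other.

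Hairpins within 10 kb of each other on one strand formed 34 clusters with a leading (more abundant) arm among the 396 for at least 2 hairpins. In 14 clusters all leading arms lay on the same side of 0, 9 higher in HT29 and 5 higher in DLD1, and in 20 they lay on both sides. The number on 1 side ran from 15 to 21 under the other scalings and left-out libraries. Most clusters held only 2 leading arms, which can readily share a side without any link. The number is therefore not read as agreement of neighbours. All leading arms were called in one direction in 7 clusters, where 26.5% of the 396 were called higher in HT29 and 29.8% higher in DLD1. They were higher in HT29 for miR-200b with miR-200a and miR-429, miR-215 with miR-194-1, miR-192 with miR-194-2, and miR-99b, let-7e and miR-125a. They were higher in DLD1 for miR-371-373, miR-15b with miR-16-2 and the 450b-to-424 cluster. The clusters with miR-194-1 and miR-194-2 have the leading arm miR-194-5p in common, so they are not separate observations. In the miR-15b cluster, however, miR-15b-3p was called higher in HT29 (log2 fold change 1.46, adjusted p = 0.0197). Its leading arm miR-16-5p also comes from the miR-16-1 hairpin, and miR-16-2-3p did not pass (log2 fold change -0.29).

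The intestinal miR-192 and miR-215, which share a seed and lie on different chromosomes, were both called higher in HT29. miR-192-5p (chr11, cluster at chr11:64658609-64658911, minus strand) was at 817 and 753 CPM in DLD1 and 17996 and 25878 CPM in HT29 (log2 fold change 5.97, SE 0.60, adjusted p = 0.00321). miR-215-5p (cluster at chr1:220291195-220291583, minus strand) was at 87.6 and 94.5 CPM against 199 and 597 CPM (log2 fold change 3.01, SE 0.28, adjusted p = 0.00294). miR-194-5p, which both clusters encode, was at 1632 and 1517 CPM against 2922 and 13089 CPM. The calls of miR-215-5p and miR-194-5p were both lost with library totals and without DLD1 replicate 2. The other arm, miR-194-3p, was at 23.97 and 34.7 CPM in DLD1 and 6.67 and 5.72 CPM in HT29 (log2 fold change -0.93, SE 0.70, adjusted p = 0.316). It comes from the miR-194-2 hairpin alone and miR-194-5p from both hairpins, so the arms of a single hairpin cannot be compared here. The miR-192-5p level exceeded that of miR-215-5p in every library of both lines.

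The miR-200b, miR-200a and miR-429 cluster, whose members repress the ZEB transcription factors, was called higher in HT29 as a whole, but by values that rest on the scaling. miR-429 was at 5260 and 4723 CPM in DLD1 and 3135 and 11499 CPM in HT29, so the lines overlapped on library totals, while the fit gave 1.36 (SE 0.29, adjusted p = 0.0167), and the call was lost with library totals, with upper quartile factors over the tested miRNAs, with a replicate block and without either DLD1 library. The call of miR-200b-3p was lost in the same settings except upper quartile factors over the tested miRNAs. miR-200c-3p, from the other miR-200 cluster, was at 53618 and 65269 CPM against 10821 and 17775 CPM, and its fitted log2 fold change was -0.94 (adjusted p = 0.152).

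Several clusters split. In miR-425/191, both in an intron of DALRD3 (chr3:49057581-49058142, minus strand), miR-425-5p was at 21605 and 17800 CPM in DLD1 and 70.3 and 327 CPM in HT29 (log2 fold change -5.91, SE 0.43, adjusted p = 0.00262). The other arm of the same hairpin, miR-425-3p, was at 134 and 142 CPM against 38.4 and 288 CPM (log2 fold change 0.83, SE 0.51, adjusted p = 0.23), and the neighbour miR-191-5p was at 4230 and 4987 CPM against 2112 and 1996 CPM. In DLD1 the 5p arm of miR-425 thus stood far above its 3p arm, and in HT29 the arms were much closer. In MCS miR-425-5p was at 13176 and 16349 CPM in DLD1 and 138 and 502.7 CPM in HT29, and miR-425-3p at 181.7 and 143 CPM and at 56.1 and 225 CPM.

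The miR-17-92 cluster, an oncogenic polycistron in exons of MIR17HG (chr13:92002859-92003645, plus strand), also split. miR-20a-5p was at 3932 and 3744 CPM in DLD1 and 18877 and 26651 CPM in HT29 (log2 fold change 3.74, SE 0.54, adjusted p = 0.00674), and miR-17-3p was at 22.8 CPM in both DLD1 libraries against 80.7 and 293 CPM (log2 fold change 3.85). Against these, miR-92a-1-5p was at 122 and 163 CPM against 3.14 and 9.42 CPM (log2 fold change -3.62, SE 0.39, adjusted p = 0.00378). The abundant arm of the same hairpin, miR-92a-3p, which also comes from a second locus, was at 28410 and 32665 CPM against 7453 and 8402 CPM (log2 fold change -0.68, adjusted p = 0.363). miR-96-5p, of the miR-183, miR-96 and miR-182 cluster, was at 264 and 161 CPM against 1494 and 3348 CPM (log2 fold change 4.50), whereas miR-182-5p of that cluster was at 8983 and 8849 CPM against 2220 and 2233 CPM and did not pass.

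Both arms of 101 hairpins were among the 396. Of these pairs, 56 had arms with the same sign, 23 had both arms called in the same direction (11 higher in HT29 and 12 in DLD1) and 10 had both called in opposite directions, while 42 had 1 arm called and 26 had none. The median absolute difference between the arms was 1.45 on the log2 scale. Across these 101 pairs, which share the 4 libraries, Pearson's r of the arms was 0.65 and Spearman's rho 0.39.

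Among 9 pairs with both arms called at 10-fold or more, none was in opposite directions: miR-552, miR-455, miR-31, miR-125a and let-7e were higher in HT29, and miR-371a, miR-148a, miR-9 and miR-1247 in DLD1. In each of these pairs, an arm or both arms passed the minimum only through the line where the level was higher. The direction of such an arm was partly fixed by the rule, so the agreement of these pairs is limited as evidence. miR-31, a miRNA long linked to colorectal tumours, came from an intron of MIR31HG (chr9:21512114-21512184, minus strand), with miR-31-5p at 418 and 364 CPM in DLD1 and 1316 and 5897 CPM in HT29 (log2 fold change 3.94, SE 0.35) and miR-31-3p at 8.16 and 4.63 CPM against 158 and 681 CPM (log2 fold change 6.78, SE 0.54). miR-1247, from an exon of DIO3OS, was at 372 and 483 CPM against 15.9 and 8.16 CPM on the 5p arm (log2 fold change -3.64, SE 0.97, adjusted p = 0.0323) and 87.6 and 103 CPM against 2.10 and 4.16 CPM on the 3p arm (log2 fold change -3.92, SE 0.45).

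**Figure D4:**
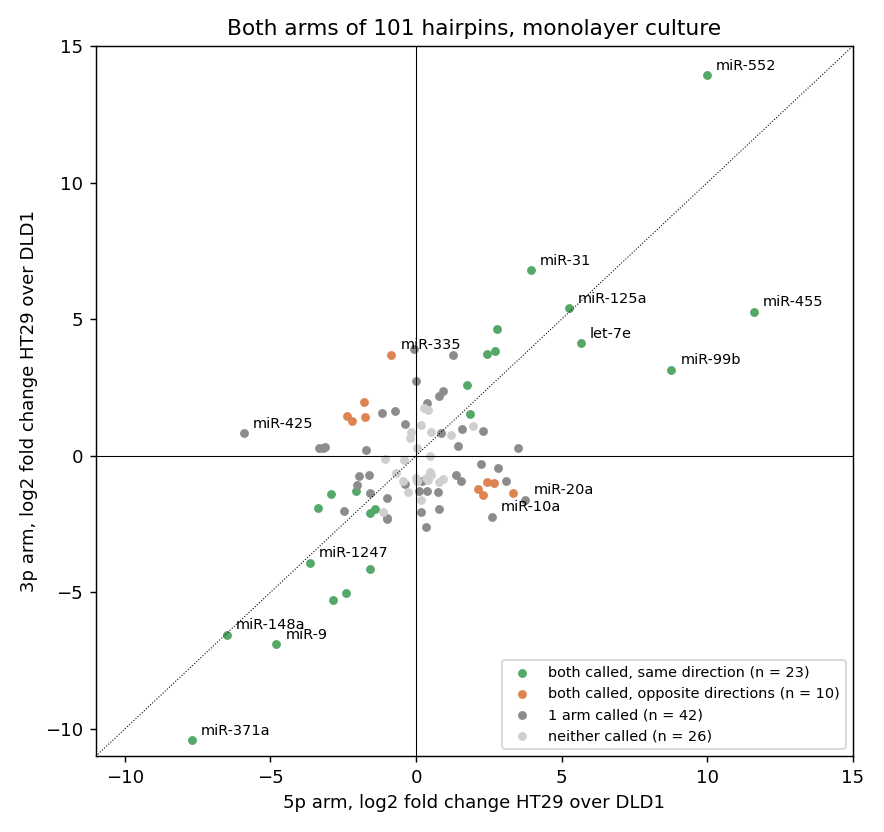
Fitted log2 fold change HT29 over DLD1 of the 5p arm (x axis) against that of the 3p arm (y axis) for 101 hairpins with both arms among the 396, coloured by which arms were called. Both arms of miR-552 lie far above 0 and both arms of miR-371a far below 0, while miR-425, miR-335 and miR-10a have 1 arm on each side of 0.

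The pairs with arms called in opposite directions included miR-335, chosen after its values were seen, from an intron of MEST, an imprinted gene. miR-335-5p was at 888 and 924 CPM in DLD1 and 133 and 421 CPM in HT29 (log2 fold change -0.85, adjusted p = 0.0418), a call lost under 9 of 14 alternatives, and miR-335-3p was at 977 and 1049 CPM against 5023 and 6166 CPM (log2 fold change 3.70, SE 0.57, adjusted p = 0.00748). The arms were therefore at similar levels in DLD1 and far apart in HT29. For miR-10a, encoded in the HOXB cluster, miR-10a-5p was among the most abundant in both lines, at 162222 and 152235 CPM against 472545 and 105785 CPM, and did not pass (log2 fold change 2.59, SE 1.34, adjusted p = 0.164). Its 3p arm was at 4101 and 5008 CPM against 265 and 773 CPM (log2 fold change -2.24, SE 0.26, adjusted p = 0.00402). The 2 HT29 libraries of miR-10a-5p lay on either side of both DLD1 libraries.

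Seed relatives of miR-148a-3p did not pass the test. miR-148b-3p, chosen after its values were seen, was at 5873 and 5884 CPM in DLD1 and 1798 and 2305 CPM in HT29 (log2 fold change -0.30, adjusted p = 0.62), and miR-152-3p, chosen likewise, was at 806 and 934 CPM against 243 and 227 CPM (log2 fold change -0.55, adjusted p = 0.486). On library totals all 3 were lower in HT29, and the gap was several times larger for miR-148a-3p.

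The lists describe which known groups the members belong to. Of 10 tested miRNAs of colorectal epithelium, 7 were called higher in HT29 and 1 higher in DLD1, with a median of 2.04 against -0.15 over the 396, where 26.5% of the 396 were called higher in HT29 and 29.8% higher in DLD1. With library totals the counts were 1 and 2, without DLD1 replicate 1 they were 4 and 0, and without DLD1 replicate 2 they were 1 and 0. The 6 tested arms of miR-31, miR-135b and miR-21 had 5 called higher in HT29 (median 3.37), and 3 with library totals and without either DLD1 library. Over the 396, 26.5% were called higher in HT29. For an arm of miR-135b and an arm of miR-21 among the 5, the lines overlapped in CPM of the library total, so these calls rest on the scaling. miR-21-5p, the most abundant miRNA of DLD1, was at 286868 and 251864 CPM in DLD1 and 170890 and 281060 CPM in HT29 and did not pass (log2 fold change 0.86, adjusted p = 0.285). Of the 11 tested miRNAs from introns of CLCN5 on the X chromosome, 6 were called higher in DLD1 and none in HT29 (median -1.69), against the same shares. The count higher in DLD1 was 3 with library totals, 9 with upper quartile factors over the tested miRNAs, 2 without either DLD1 library, 11 without HT29 replicate 1 and 8 without HT29 replicate 2, where 1 was higher in HT29.

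Markers of other cell types were scarce. The marker lists held 2 tested miRNAs of blood cells, 1 of stroma and endothelium, 1 of muscle and none of neural or liver cells. miR-126-3p, the endothelial marker, was at 85.9 and 79.0 CPM in DLD1 and 2.19 and 15.3 CPM in HT29 (log2 fold change -2.60, adjusted p = 0.0155). miR-1-3p, the muscle miRNA, was at 1.39 and 1.30 CPM against 50.02 and 22.1 CPM (log2 fold change 6.30, SE 1.20, adjusted p = 0.013). Both calls were lost without DLD1 replicate 2, and that of miR-126-3p also with library totals. Each culture was grown from a single cell line, so a marker here names where the miRNA is best known and not a cell type present. Why the lines differed in these miRNAs was not tested. The 10 epithelial markers tested were above the minimum in every monolayer library, with miR-215-5p the lowest at 87.6 CPM in DLD1.

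Some members are close to the reverse complement of another. In 12 pairs, 16 or more bases of a member were the reverse complement of another, and whether counting used strand is not given in the sources used here. The run was 24 bases for miR-7-5p, chosen after its values were seen, and miR-3529-3p, which were at 1885 and 1811 CPM against 7063 and 11327 CPM, and 18940 and 19022 CPM against 35079 and 40696 CPM. For miR-103a-3p and miR-103b, chosen after their values were seen, it was 23 bases, and the levels in the first DLD1 library were 11713 and 12303 CPM. If strand was not used, reads of such pairs could have been shared between them. Of the 22 members concerned, 4 were among those called at 10-fold or more, with miR-371a-5p and miR-371b-3p among them.

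The most abundant miRNAs overlapped in part. miR-21-5p took 28.7% and 25.2% of the counts in DLD1 and 17.1% and 28.1% in HT29, and miR-10a-5p took 16.2% and 15.2% in DLD1 and 47.3% and 10.6% in HT29. Both miR-10a-5p and miR-99b-5p took a larger share in HT29 replicate 1 than in the other 3 libraries. The 10 most abundant of each line also shared miR-200b-3p, miR-200c-3p and miR-3529-3p. miR-26a-5p, miR-92a-3p, miR-425-5p, miR-30d-5p and let-7g-5p were among them in DLD1 only, and miR-99b-5p, miR-20a-5p, miR-192-5p, miR-30e-5p and miR-221-3p in HT29 only. miR-26a-5p was at 35471 and 44876 CPM in DLD1 and 4208 and 7821 CPM in HT29 (log2 fold change -1.67, adjusted p = 0.0262). Its call was lost with a replicate block, among other settings.

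Of 3 further clusters on the lists, the listed members were near absence in both lines. The miR-302 family of pluripotent cells, with miR-367, summed to at most 0.353 CPM in any monolayer library, the 12 listed miRNAs of the miR-506-514 cluster of the X chromosome to at most 0.534 CPM and the 27 listed miRNAs of the imprinted 14q32 region to at most 3.22 CPM, with none of them among the 396. miR-1247, which lies beside the last of these in DIO3OS and was not on the list, was among the 396 with the values given above. Of the 10 tested miRNAs of miR-17-92, 4 were called higher in HT29 and 1 in DLD1 (median 1.80), with 2 and 2 under library totals, 1 and 1 without either DLD1 library, 6 and 4 without HT29 replicate 1 and 4 and 2 without HT29 replicate 2, where the median was 0.30. Of 6 tested from HOX clusters, 2 were called higher in DLD1 and none in HT29 (median -0.83), against 29.8% and 26.5% of the 396. Without HT29 replicate 2 the counts were 3 and 2, without HT29 replicate 1 they were 4 and 0, without DLD1 replicate 1 they were 1 and 0, and without DLD1 replicate 2 none was called.

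By composition, the 355 members with a sequence had median log2 fold changes of 0.81 for a GC content up to 40% (84 miRNAs), -0.26 for over 40% to 50% (133) and -0.51 for over 50% (138). In MCS the corresponding medians were -0.09, -0.46 and -0.57. By the last base, the median was 0.37 for C (76 miRNAs) and -0.45 for G (89). The part of the kit version in these values cannot be told apart from that of the line.

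The MCS libraries of the same lines gave a second measurement with the same kit difference between lines. HT29 replicate 1 stood apart there too: its 10 most abundant miRNAs took 80.8% of its counts, against 62.9% to 65.9% in the other MCS libraries. Its miR-10a-5p was at 385000 CPM, against 65700 CPM in HT29 MCS replicate 2. A high share of the 10 most abundant miRNAs and a high miR-10a-5p were thus seen in HT29 replicate 1 of both cultures. Whether the replicate number links these libraries is not stated, and the cause was not tested. Of 366 miRNAs tested in both cultures, 201 were called in 2D, of which 166 were called in MCS in the same direction and none in the opposite one, where 59.7% of 395 tested in MCS were called. All 73 of the 10-fold miRNAs of 2D that could be tested in MCS were called there in the same direction, 58 of them at 10-fold or more, and 11 could not be tested. Without HT29 2D replicate 1 this was 78 of 82. Pearson's r of the line differences was 0.93 over the 366 miRNAs, which share kits and lines.

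**Figure D5:**
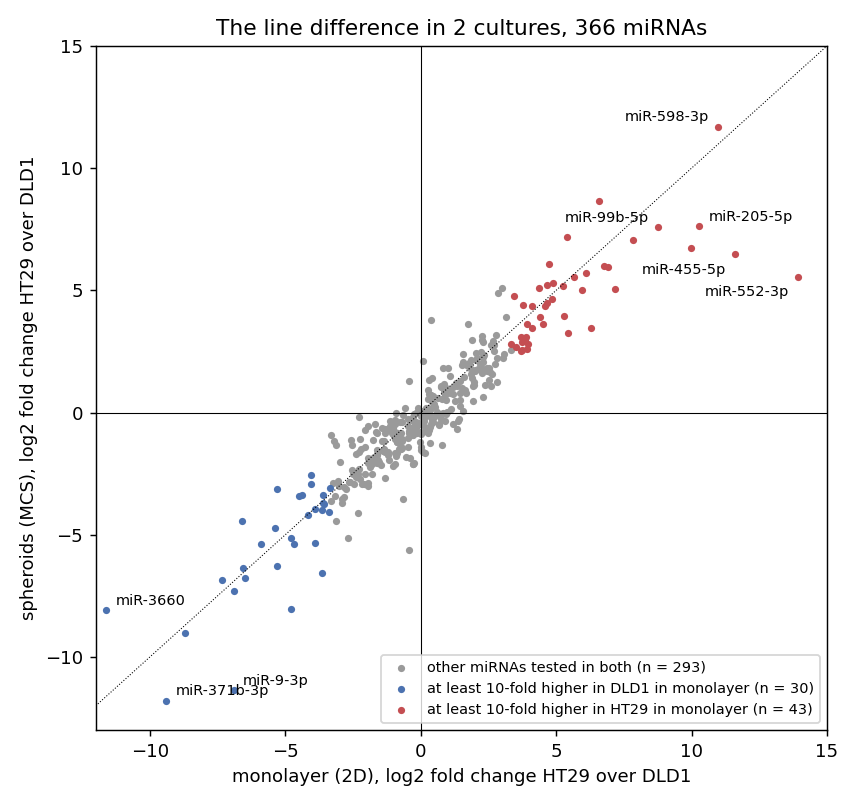
Fitted log2 fold change HT29 over DLD1 in monolayer (x axis) against that in spheroids (y axis) for the 366 miRNAs tested in both, with those at least 10-fold different in monolayer in red (higher in HT29) and blue (higher in DLD1) and the line of equality dotted. All 73 coloured points lie in the quadrants of equal sign, and miR-552-3p lies below the line, with DLD1 at 2.38 and 3.62 CPM in spheroids.

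A test of whether the line difference itself changed between 2D and MCS (the interaction of line and culture) called none of 396 miRNAs. The smallest adjusted p was 0.0679, and 46 had an unadjusted p under 0.05. The count was 2 with TMM factors, 4 without HT29 2D replicate 2 and 2 without HT29 MCS replicate 2. miR-9-5p and the miR-371-373 arms, whose DLD1 levels differed between the cultures, were thus not shown to differ in their line contrast.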

How the data were processed

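Small RNA was sequenced from 8 libraries, 2 each of DLD1 and HT29 in 2D and MCS. The deposited values are raw counts of reads per mature miRNA, which the authors made by trimming adapters and aligning reads. The submitters' processing notes name CASAVA 1.8.3, cutadapt 1.11, Bowtie2 2.1.0, edgeR 3.4.2 and the hg19 build, without roles. Total miRNA counts ran from 10495634 to 26211524 in the 2D libraries. Intervals and floors cover counting error only.

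Groups came from the sample labels. The 396 miRNAs were tested with edgeR 4.0.16 (quasi-likelihood test, upper quartile factors, Benjamini-Hochberg adjustment, R 4.3.3), with no term for the replicate number, calling an adjusted p under 0.05 and a fold of at least 1.5. The biological coefficient of variation was 0.397, or 0.186 in DLD1 alone and 0.526 in HT29 alone. An exact permutation test of 2 against 2 libraries cannot go below p = 0.3333 and was not used. In simulated counts with known changes, 97.3% of 37 miRNAs changed 16-fold and 57.1% of 21 changed 4-fold were called, and 0 of 326 unchanged ones. The simulation gave every miRNA the coefficient of 0.397 and both lines the same composition apart from the changed miRNAs. It therefore cannot give the rate of false calls under the unequal spread and scaling of these libraries.

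Alternatives were TMM, DESeq2 size factors (RLE), library totals and upper quartile over the tested miRNAs for scaling, edgeR's exact test, DESeq2 1.42.0, all 8 libraries in one fit, a minimum mean level and no filter, a replicate block, and leaving out each library. Those added after seeing the data were the crossed block, the scalings and left-out libraries for clusters, lists, features and the interaction, and the spheroid comparison without HT29 2D replicate 1. Sequences came from RefSeq (GRCh38.p14) and positions from GRCh37, where hairpins were placed by sequence. The miRNAs named were the on/off set, the 10 most abundant of each line, the 10 largest fold changes per direction, their other arms, members of clusters with at least 2 hairpins called at 10-fold, and list members, others being marked as chosen after their values were seen. The members and lists were chosen with earlier results of these data known. The 15 entries that name no miRNA, 0.00988% of the counts of HT29 2D replicate 2, were left out.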

Additional observations from a re-analysis of the deposited data

Results flagged for a closer look

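In HT29 2D replicate 2, 15 entries of the count table named no miRNA and held 2590 counts, or 0.00988% of the library's miRNA counts. The other 7 libraries had no count on them. These entries were outside every comparison.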

How the results depend on the processing

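The number of called miRNAs (223) depended on scaling, filter and library. With library totals 131 were called, 37 higher in HT29, and with no filter 393, 200 higher in HT29 and 193 in DLD1, with 192 at 10-fold or more, where more miRNAs were tested. Leaving out 1 library gave 85 to 314 called, 33 to 147 higher in HT29, 52 to 176 higher in DLD1 and 72 to 93 at 10-fold, the lowest counts of calls being without DLD1 replicate 2. With 1 library of a line left out, the fit took its spread from the other line's libraries, so these counts also depend on which line that was. With upper quartile factors over the tested miRNAs, 91 were higher in HT29 and 152 in DLD1.

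The on/off count for HT29 (6) became 12 with CPM scaled by upper quartile factors, 15 with TMM factors, 10 with off set under 2 CPM and 0 with on at 100 CPM, and ran from 6 to 10 with 1 library left out. That for DLD1 (18) became 11 with TMM factors, 3 with on at 100 CPM and 10 with off set under 0.5 CPM, and ran from 20 to 34 with 1 library left out. Hairpins with both arms called in one direction (23) became 12 with library totals and 55 with no filter and ran from 8 to 43 with 1 library left out, and the clusters on 1 side (14) from 15 to 21. The interaction gave 2 calls with TMM factors and 0 to 4 with 1 library left out. The causes were not tested.

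Labels give both lines the same replicate numbers. With these as a replicate block, 191 miRNAs were called, 90 higher in HT29 and 101 in DLD1, with 83 at 10-fold and 17 hairpins with both arms called in one direction. Whether the numbers pair the samples is not stated. Over the 396 miRNAs, deviations of same-numbered DLD1 and HT29 libraries in 2D from their line means correlated at -0.24. With the crossed pairing, 208 were called.

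Of the 68 called miRNAs named in the text, 47 were called under every alternative. Directions turned only for uncalled ones. let-7a-5p was at -0.0076 with RLE factors, -1.47 with library totals, -0.56 with upper quartile over tested miRNAs, -0.42 with the replicate block and -1.64 to 0.79 with 1 library left out. miR-191-5p was at -1.17, -0.39 and -0.0735 with library totals, upper quartile over tested miRNAs and the block, and -0.93 to 0.80 with 1 library left out. miR-21-5p was at -0.25 with library totals, and with TMM factors miR-103a-3p was at 0.12, miR-103b at 0.11 and miR-30d-5p at 0.195 (0.0589 with RLE factors). With 1 library left out, miR-100-5p ran from -2.76 to 0.43, miR-10a-5p from -0.30 to 3.50, miR-148b-3p from -1.08 to 0.21 and miR-152-3p from -1.67 to 0.0823.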
